A study of Mus musculus with 2 samples.

Results

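The genes described here are the 34 members of the KEGG set of arginine and proline metabolism, taken as the authors' deposited table of that set lists them, out of 10402 gene symbols with expression values. RNA was sequenced from peritoneal macrophages of mice, 1 library from ECM1-sufficient and 1 from ECM1-deficient animals, where ECM1 is the secreted extracellular matrix protein 1. Both samples were elicited for 3 days with an agent that the labels name ThG and were not activated further, as the suffix lps- in both titles also records. Strain, age, sex, the Ecm1 allele and the number of animals behind each library are not given in the sources used here. Expression is in FPKM, a fragment count that is adjusted for gene length and library size, so levels of different genes can be compared per length. With 1 library per genotype no test was possible, no difference below has a replicate check, and fewer cells of a type cannot be told apart from less RNA per cell.

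Arginine stands at a branch point in macrophages. Arginase splits it into urea and ornithine, nitric oxide synthase turns it into citrulline and nitric oxide, and the first enzyme of creatine synthesis takes its amidino group. Ornithine is either decarboxylated to putrescine, which opens the polyamine pathway, or converted to glutamate semialdehyde and then to proline or glutamate. The inducible arginase gene Arg1 is known for its high expression in alternatively activated mouse macrophages, and Nos2 for its induction in classically activated ones.

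As a group the members were listed with higher FPKM when ECM1 was deficient. Of the 32 members with FPKM, 31 had the higher value there, but so did 89.6% of all 10402 genes. Among the 7329 genes that reached 1 FPKM in each library, the median of the FPKM ratios was 1.73 toward the ECM1-deficient side, or 0.79 on the log2 scale, and 25 of the 32 members lay above that ratio and 7 below it. Of all genes, 53.4% lay above it. Every listed gene reached 0.5004 FPKM in at least one library. L3hypdh, Maob and Sat2 did so only in the ECM1-deficient library, so these members had to be higher there. Together the 32 members made up 342 FPKM in the ECM1-sufficient and 684 FPKM in the ECM1-deficient library. That was 0.249% and 0.364% of the summed FPKM.

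Of the 34 members, Nos2 and Arg2 had no FPKM in the table used here. Azin2, L3hypdh and Maob stayed below 1 FPKM in both libraries and are given by their values only. The other 29 reached 1 FPKM in at least one library, and 4 of them, Sat2, Aldh4a1, P4ha2 and Aldh18a1, did so in the ECM1-deficient library only, so that each had to be higher there. A gene was called higher or lower when its log2(FPKM + 1) differed by 1 or more between the libraries, which is 2-fold in FPKM + 1. By that rule 11 of the 29 members were higher in the ECM1-deficient library and 0 were lower, against 14.8% higher and 2.17% lower among all 9032 genes that reached 1 FPKM in either library. The median difference was 0.85 for the members and 0.61 for all these genes. After the FPKM of both libraries were brought to the same median ratio, 0 members were higher and 0 lower, with 2.45% of all genes higher and 4.77% lower. On that scale, called the centred scale below, the members ran from -0.62 to 0.88 with a median of 0.21, and 23 of 29 were above 0, compared with 54.3% of all genes.

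**Figure D1:**
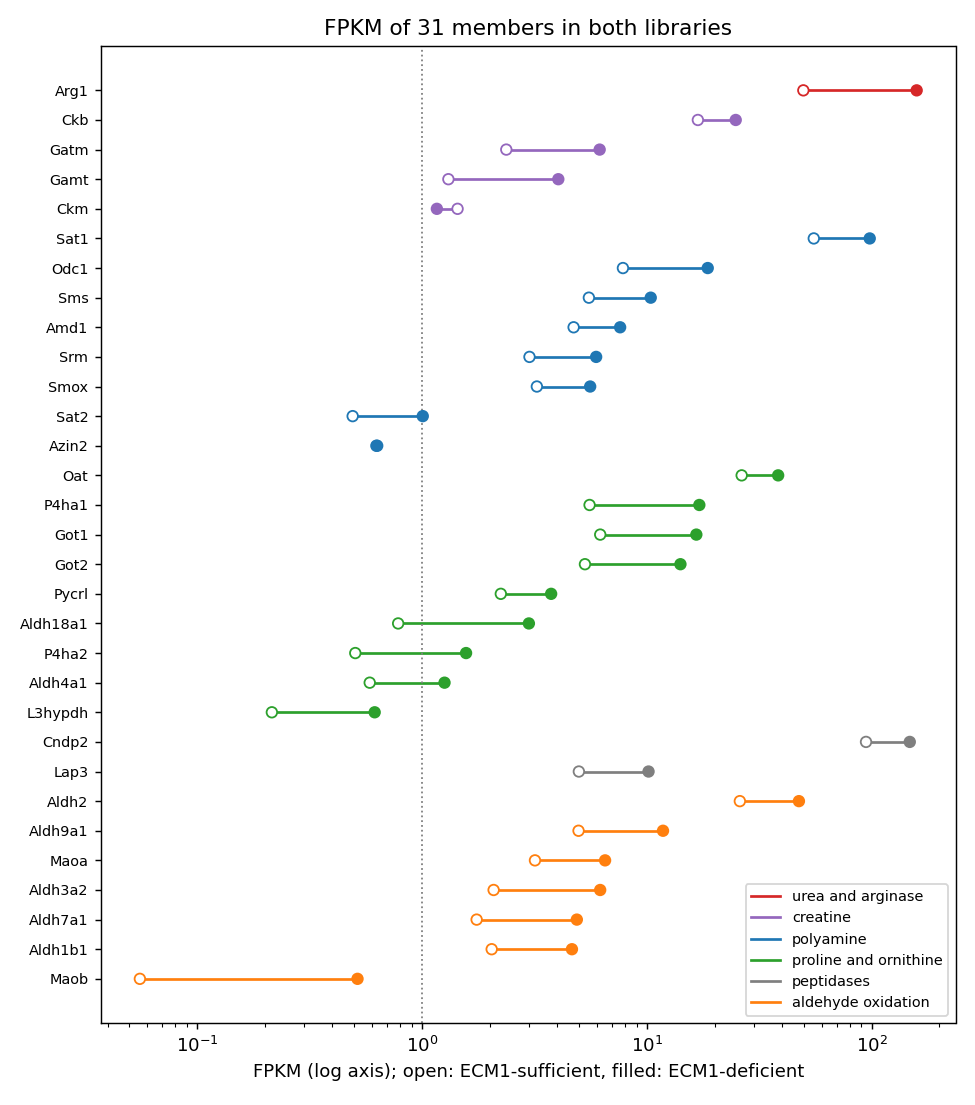
FPKM of 31 members, on a log axis, 1 line per gene, grouped and coloured by branch. Open circles are the ECM1-sufficient library, filled circles the ECM1-deficient library and the dotted line marks 1 FPKM. The filled circle lies to the right for every plotted gene but Ckm, and Azin2 is nearly level at 0.627 and 0.632 FPKM.

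Ecm1 was at 5.63 FPKM in the ECM1-sufficient and 1.02 FPKM in the ECM1-deficient library, the direction of the labels. Of 9 macrophage markers 8 had FPKM, and without Lyz2 the other 7 summed to 483 and 855 FPKM. The lysozyme gene Lyz2 went the other way, with 2774 and 5.44 FPKM, and its part in the results below was not tested. Markers of B cells, T cells, neutrophils, eosinophils and mast cells, and mesothelial cells and fibroblasts held 12 of 23 genes with FPKM, which summed to 37.5 and 69.5 FPKM. The defining T cell genes Cd3e, Cd3g, Cd4 and Cd8a, the B cell gene Ms4a1 and the neutrophil gene Ly6g had none in the table used here. Other B cell genes, Cd79a, Cd79b and Cd22, did have FPKM and summed to 3.67 and 9.52. The neutrophil genes S100a8 and Csf3r summed to 6.40 and 7.71 FPKM, with S100a8 alone lower in the ECM1-deficient library. Most of the 37.5 and 69.5 FPKM came from the mesothelial and fibroblast list, at 26.0 and 49.2 FPKM. In that list Msln and Krt19 had no FPKM, and most of the sum was Dcn, at 12.8 and 28.1 FPKM, and Col1a1. Col1a1 was nearly level at 11.0 and 11.9 FPKM, while Pdgfra was at 1.57 and 7.62 FPKM. The part of these cell types in the results was not tested either.

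In the urea and arginase branch, Arg1 was the most highly expressed member of the set in the ECM1-deficient library. It had the largest difference of log2(FPKM + 1) of the 29. By FPKM ratio it was 3.19-fold higher, below Aldh18a1 at 3.81-fold. With a pseudocount of 0.1 Aldh18a1 was also ahead, at 1.81 against 1.67. By its deposited position Arg1 lies on chromosome 10 from 24915208 to 24927470 on the minus strand. Arg1 has 8 exons and encodes the cytosolic arginase of liver and macrophages. Its level of 49.6 FPKM in the ECM1-sufficient library ranked 405 among all genes, and that of 158 FPKM in the ECM1-deficient library ranked 165. On the centred scale its difference was 0.88, which ranked 292 of 9032 genes from the top. Ratios between genes of the same library do not depend on the scaling. Arg1 had 1.88 times the FPKM of Oat, which encodes the aminotransferase that takes ornithine toward proline, in the ECM1-sufficient library and 4.13 times in the other. Against Odc1, the gene of the decarboxylase that takes ornithine toward polyamines, the corresponding ratios were 6.34 and 8.49.

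Arg2, which encodes the mitochondrial arginase, had only a rank metric in the authors' deposited table of the set. For all 32 members with FPKM that metric was the FPKM gap, sufficient minus deficient, over 0.2 times the summed FPKM, to within 2.15e-07, so the fold of Arg2 could be recovered while its level could not. The authors' deposited table put Arg2 at 1.99-fold higher in the ECM1-deficient library, nearer to the median ratio than Arg1.

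For the nitric oxide branch, the set named Nos2, the inducible nitric oxide synthase. The metric in the authors' deposited table placed it at 7.81-fold higher in the ECM1-sufficient library, at rank 88 of a list in which the members' ranks ran to 10660. Nos2 and Ckm were the only members of the 34 whose metric in the authors' deposited table pointed to the ECM1-sufficient library. The level of Nos2 is unknown, and so is the number of fragments behind this fold. Every gene in the expression table used here reached 0.5004 FPKM in at least one library, so a level below that in both, for Nos2 or Arg2, is possible and could not be checked.

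In the creatine branch the synthesis genes lay above the median ratio and the kinase genes below it. Gatm, which encodes the mitochondrial enzyme that transfers the amidino group of arginine to glycine, was at 2.37 and 6.17 FPKM in the ECM1-sufficient and ECM1-deficient libraries, 2.60-fold higher. Gamt, whose product methylates guanidinoacetate to creatine, was at 1.31 and 4.04 FPKM, 3.08-fold higher. Both genes of creatine synthesis were thus past the 2-fold rule, which 14.8% of all genes passed. With 0.47 and 0.58 on the centred scale both were within 2-fold there. Ckb, the brain-type creatine kinase gene, had the highest level of the branch at 16.9 and 24.8 FPKM, a ratio of 1.47 and below the median ratio. Ckm, the muscle-type kinase gene, was the only measured member with the lower FPKM in the ECM1-deficient library, at 1.44 against 1.16. Its exons share 451 bases with an antisense transcript, A930016O22Rik, and whether the counting used strand is not given in the sources used here. Members Got2 (434 bases), Aldh7a1 (300 and 176 bases) and Aldh2 (130 bases) also share exon bases with genes on the opposite strand. Ckb had 7.11 times the FPKM of Gatm in the ECM1-sufficient and 4.03 times in the ECM1-deficient library.

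In the polyamine branch most genes lay close to the median gene, and Odc1 above and Azin2 below it were the farthest. Odc1, the gene of ornithine decarboxylase and so of the first step, was at 7.83 and 18.7 FPKM, 2.38-fold higher in the ECM1-deficient library, and was the only one of the 7 members at 1 FPKM or more to pass the 2-fold rule, which 14.8% of all genes passed. On the centred scale it stood at 0.43, within 2-fold. Srm, the spermidine synthase gene, was at 3.01 and 5.95 FPKM, and Sms, the spermine synthase gene, at 5.52 and 10.4 FPKM. These aminopropyl transferases kept nearly the same proportion to each other, with Srm at 0.544 and 0.572 times the FPKM of Sms. Amd1, whose product supplies the aminopropyl groups, was at 4.72 and 7.61 FPKM, a ratio of 1.61. Amd2, a close copy of Amd1 outside the set, was at 2.05 and 3.01 FPKM, and fragments shared between the copies make both values uncertain.

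The genes Sat1 and Smox of polyamine acetylation and oxidation were also near the median ratio. Sat1, which encodes the acetyltransferase that starts the breakdown of spermine and spermidine, had the highest FPKM of the branch with 55.2 and 98.0, a ratio of 1.77. Smox, the spermine oxidase gene, was at 3.24 and 5.60 FPKM and so at the median ratio itself, 1.73-fold. Sat2, a relative of Sat1, was at 0.492 and 1.01 FPKM. Azin2, which encodes an inhibitor of the antizymes that restrain ornithine decarboxylase, was the most level of the measured members, at 0.627 and 0.632 FPKM, and therefore below the median gene, at -0.30 on the centred scale. Sat1 had 7.06 times the FPKM of Odc1 in the ECM1-sufficient library and 5.25 times in the other.

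**Figure D2:**
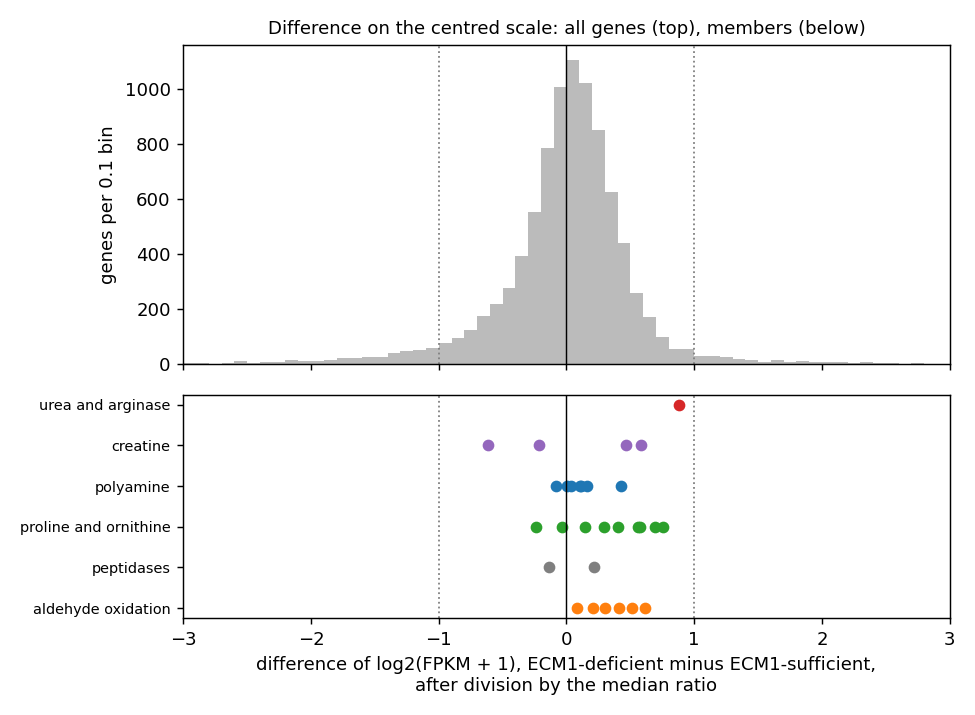
Difference of log2(FPKM + 1) on the centred scale, ECM1-deficient minus ECM1-sufficient, as a histogram of the 9032 genes reaching 1 FPKM in either library (top, 70 genes outside the range) and for the 29 members by branch (bottom, 1 point per gene). Dotted lines mark 2-fold in either direction, and all 29 members lie between them, from Ckm at -0.62 to Arg1 at 0.88.

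Of the 29 members at 1 FPKM or more, P4ha1 and Aldh18a1 of the proline and ornithine branch came next after Arg1 in distance from 0 on the centred scale. P4ha1, which encodes a catalytic subunit of collagen prolyl 4-hydroxylase, was at 5.56 and 17.1 FPKM, 3.08-fold higher in the ECM1-deficient library, with 0.76 on the centred scale. P4ha2, the gene of the other measured catalytic subunit, was at 0.505 and 1.57 FPKM. These subunit genes kept their proportion, with P4ha1 at 11.0 and 10.9 times the FPKM of P4ha2. Aldh18a1, the gene of the enzyme that reduces glutamate on the way to proline and ornithine, was at 0.784 and 2.99 FPKM, 3.81-fold higher, with 0.69 on the centred scale, and reached 1 FPKM only in the library where it was high. Oat, which links ornithine to the same intermediate, was much more abundant, at 26.4 and 38.4 FPKM, and had the lowest FPKM ratio of the branch, 1.45, with -0.24 on the centred scale.

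The last step to proline is carried out by pyrroline-5-carboxylate reductases. Pycrl, the gene of a cytosolic form, was at 2.24 and 3.75 FPKM, a ratio of 1.67. Aldh4a1, whose product oxidises the same intermediate to glutamate, was at 0.586 and 1.26 FPKM. A readthrough gene, Gm21969, shares 1595 exon bases with Aldh4a1, so its fragments may be divided between them. L3hypdh, a dehydratase gene of hydroxyproline breakdown, was at 0.215 and 0.616 FPKM.

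The aspartate aminotransferases, which the set includes for their part in hydroxyproline breakdown, were nearly identical in their difference. Got1, the cytosolic form, was at 6.20 and 16.6 FPKM, and Got2, the mitochondrial form, at 5.31 and 14.1 FPKM. The ratios between the libraries were 2.68 and 2.66, and within a library Got1 had 1.17 and 1.18 times the FPKM of Got2. Both passed the 2-fold rule, with 0.58 and 0.56 on the centred scale. In this branch 4 of 9 members at 1 FPKM or more were higher, Aldh18a1, Got1, Got2 and P4ha1, beside 14.8% of all genes. Among the 9, Aldh18a1, Aldh4a1 and P4ha2 reached 1 FPKM only in the ECM1-deficient library, so they had to be higher there. On the centred scale 0 of the 9 were higher or lower. Of the 10 members with FPKM 8 lay above the median ratio, beside 53.4% of all genes. These 8 include L3hypdh, which was listed only through its ECM1-deficient value.

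Both peptidases of the set were expressed. Lap3, a leucine aminopeptidase gene, was at 4.99 and 10.2 FPKM, a ratio of 2.04. Cndp2, a cytosolic dipeptidase gene, had the highest level of the set in the ECM1-sufficient library, at 94.3 FPKM against 148 FPKM in the other. Arg1 was below Cndp2 in the ECM1-sufficient library, at 0.526 times its FPKM, and slightly above it in the ECM1-deficient library, at 1.07 times.

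All 7 genes of amine and aldehyde oxidation lay above the median ratio, beside 53.4% of all genes. One of them, Maob, was listed only through its ECM1-deficient value, so it had to be higher there. Of the 6 at 1 FPKM or more 3 passed the 2-fold rule, beside 14.8% of all genes, and 0 did so on the centred scale. These enzymes turn the amines and aldehydes formed from polyamines and other amino acids into acids. Aldh3a2, a fatty aldehyde dehydrogenase gene, was at 2.08 and 6.20 FPKM, 2.98-fold higher in the ECM1-deficient library. Aldh7a1, whose product also acts in lysine breakdown, was at 1.75 and 4.88 FPKM, and Aldh9a1, which acts on aminobutyraldehyde, at 4.97 and 11.8 FPKM. Their ratios were 2.79 and 2.37, so these 3 genes were the ones called higher. Exons of Aldh7a1 share 300 bases with Phax on the opposite strand, and Phax was at 8.43 and 14.5 FPKM, close to the median ratio.

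The remaining genes of this branch were within the 2-fold rule or below 1 FPKM. Aldh2, the mitochondrial aldehyde dehydrogenase gene, had the highest level of the branch and its lowest ratio, 1.83, with 25.9 and 47.4 FPKM. Aldh1b1, a mitochondrial relative, was at 2.04 and 4.64 FPKM. The monoamine oxidase genes Maoa and Maob stand next to each other on the X chromosome, and Maoa was at 3.18 and 6.52 FPKM. Maob was at 0.0557 and 0.517 FPKM, a ratio of 9.29 between values that are both low, and its log2(FPKM + 1) differed by 0.52.

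Promoter sequences were read for the 23 members with a RefSeq entry (build GRCm38.p6), as the 250 bases before the RefSeq gene start. In a search on both strands, CACGTG, the E-box bound by MYC and related factors, was found in 3 of the 24 promoters of these members. They were those of Aldh18a1, Aldh3a2 and Sms. It was in 9.07% of 8853 promoters of genes at 1 FPKM or more. The amino acid response element TGATGNAAN, which ATF4 binds, was found in 1 of the 24, that of Got1, and in 1.94% of the 8853 promoters. The STAT6 site, TTC and GAA with any 4 bases between them, and TTGCNNCAA of C/EBP were in 0 member promoters, against 4.38% and 1.20% of those promoters. Over all 32851 RefSeq promoter windows the shares were 6.02% for CACGTG, 3.44% for TGATGNAAN, 5.85% for the STAT6 site and 1.74% for TTGCNNCAA. No matched motifs overlapped in a member. The 4 promoters with a match are shown because 3 of them belong to genes past the 2-fold rule and Sms does not, and all read 5′ to 3′ on the minus strand of the genome with the matched letters in capitals.
Aldh18a1, chr19:40588464-40588713: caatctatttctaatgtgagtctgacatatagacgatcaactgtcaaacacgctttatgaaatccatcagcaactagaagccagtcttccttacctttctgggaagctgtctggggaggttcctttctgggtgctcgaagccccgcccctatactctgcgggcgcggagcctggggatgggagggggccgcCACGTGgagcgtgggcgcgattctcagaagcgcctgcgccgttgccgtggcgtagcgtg
Aldh3a2, chr11:61267187-61267436: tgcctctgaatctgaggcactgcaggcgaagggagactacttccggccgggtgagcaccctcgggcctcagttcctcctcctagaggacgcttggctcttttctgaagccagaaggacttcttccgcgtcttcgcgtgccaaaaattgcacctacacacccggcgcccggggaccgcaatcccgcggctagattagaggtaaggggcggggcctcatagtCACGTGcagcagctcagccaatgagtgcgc
Got1, chr19:43524606-43524855: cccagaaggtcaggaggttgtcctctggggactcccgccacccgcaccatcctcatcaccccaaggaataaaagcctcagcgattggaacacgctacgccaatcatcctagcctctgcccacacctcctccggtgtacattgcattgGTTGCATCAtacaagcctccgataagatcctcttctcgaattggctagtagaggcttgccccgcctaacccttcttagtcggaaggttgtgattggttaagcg
Sms, chrX:157492288-157492537: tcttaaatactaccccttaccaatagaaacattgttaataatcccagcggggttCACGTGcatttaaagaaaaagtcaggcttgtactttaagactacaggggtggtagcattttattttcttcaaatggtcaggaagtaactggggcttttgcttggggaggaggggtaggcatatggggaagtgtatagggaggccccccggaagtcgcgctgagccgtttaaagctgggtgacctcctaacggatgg
The match ends 54 bases before the RefSeq start of Aldh18a1, 25 before that of Aldh3a2, 95 before that of Got1 and 191 before the upstream one of the Sms starts. The GENCODE M21 span of Aldh3a2 begins farther upstream, at 61267464, so the window shown for Aldh3a2 lies inside that span. A match is a description of these letters and no evidence of binding. Atf4 itself was at 55.8 and 83.5 FPKM and Myc at 1.20 and 1.80 FPKM, neither past the 2-fold rule.

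Transcript length was compared because it is a property that the set was not chosen on. The longest coding transcripts of the 29 members were compared with all genes in 4 equal bins of length, and 0 members were in the longest bin. Median differences of all genes were 0.57, 0.71, 0.68 and 0.54 from the shortest to the longest bin. The members' medians were 0.80, 0.90 and 0.85 in the first 3 bins, and 20 of 29 members lay above the median of their own bin. By definition a bin has as many genes above its median as below it. Among the 20 are P4ha2 and Aldh18a1, which reached 1 FPKM only in the ECM1-deficient library. The part of length in the members' differences was not tested.

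**Figure D3:**
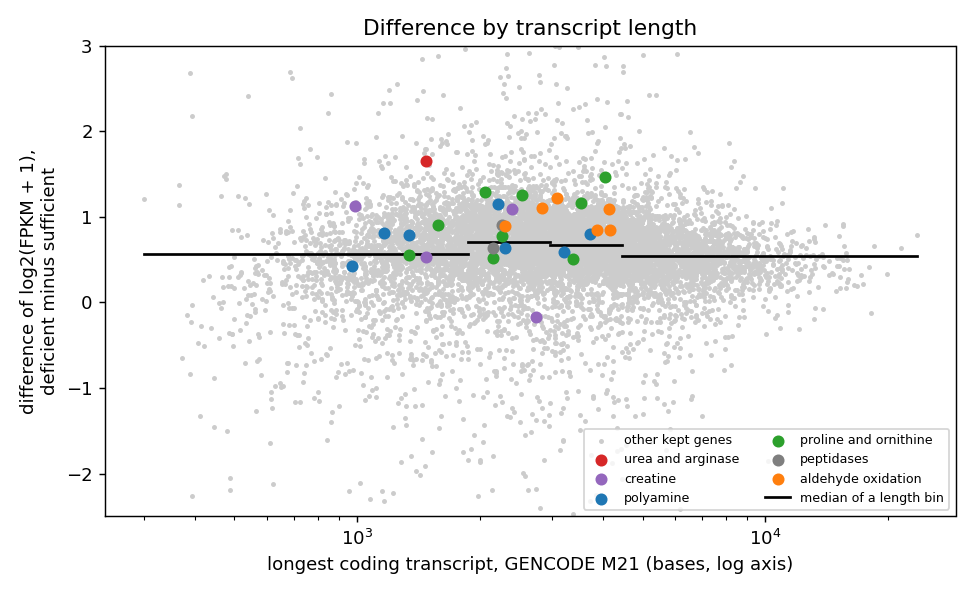
Difference of log2(FPKM + 1), ECM1-deficient minus ECM1-sufficient, against the length of the longest coding transcript in GENCODE M21 on a log axis, for 8968 genes (grey, 71 outside the range) and 29 members (coloured by branch). Black lines are the medians of the 4 length bins, between 0.54 and 0.71, and 20 members lie above the line of their bin.

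Genes that the KEGG table does not name were taken from 8 lists. The lists of glutamate and glutamine (16 genes) and of factors controlling Arg1 or amino acid genes (18 genes) were not branches of the set. In each of them 13 genes reached 1 FPKM. Together the 8 lists held 109 genes, of which 68 reached 1 FPKM. Of these, 18 were higher in the ECM1-deficient library, 1 was lower and 49 were within 2-fold, with a median difference of 0.75, beside the 14.8% higher and the median of 0.61 of all genes. On the centred scale 3 were higher, Glul and Spi1 from the lists that were not branches, and Adi1. Another 3 were lower, Qdpr, Spr and Slc7a2, and the median of the 68 was 0.088.

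The arginine transporter gene Slc7a7 and the creatine transporter gene Slc6a8 were past the 2-fold rule in the ECM1-deficient library, though neither was on the centred scale. The list of the urea cycle and arginine transport had 2 of 7 genes higher and 0 lower, beside 14.8% and 2.17% of all genes. Slc7a7, a subunit of an exchanger that exports cationic amino acids, was at 1.35 and 5.02 FPKM, and Slc25a13, the mitochondrial aspartate-glutamate carrier, at 2.31 and 5.76 FPKM. Slc7a2, a cationic amino acid transporter of activated macrophages, was at 2.57 and 1.06 FPKM, within the 2-fold rule without centring, and was called lower on the centred scale, at -1.27. Slc3a2, the heavy chain that several amino acid exchangers share, was the most abundant of the list at 13.6 and 25.1 FPKM. Asl, which makes arginine from argininosuccinate, was at 3.59 and 5.86 FPKM, and Arg1 had 13.8 times its FPKM in the ECM1-sufficient and 27.0 times in the ECM1-deficient library. Slc6a8, the creatine transporter and the only measured gene of its list, was at 7.49 and 23.9 FPKM, 3.19-fold higher. Its direction was that of Gatm and Gamt and of 89.6% of all genes.

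Around nitric oxide synthesis and its cofactor tetrahydrobiopterin, 3 of 11 genes were higher and 1, Qdpr, was lower. Among all genes the shares were 14.8% and 2.17%. Qdpr, the reductase that regenerates the cofactor, was at 47.6 and 23.1 FPKM, 2.06 times as much with ECM1, and -1.78 on the centred scale. Spr, which catalyses the last step of its synthesis, was at 4.87 and 2.59 FPKM and was called lower only on the centred scale, at -1.32. Gch1, the first enzyme of the same route, was at 2.95 and 5.60 FPKM, 0.11 on the centred scale. The genes called higher were Nosip and Nostrin, whose products bind the endothelial synthase, and the arginine methyltransferase gene Prmt5, with ratios of 2.58, 2.59 and 2.70.

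In the polyamine list 3 of 13 genes were higher and 0 lower, beside 14.8% and 2.17% of all genes. Adi1 and Mtap, both of the pathway that salvages methionine from the by-product of polyamine synthesis, were both past the rule, Adi1 with 3.80 and 16.7 FPKM and Mtap with 2.39 and 7.33 FPKM. Adi1 was the only gene of this list higher on the centred scale, at 1.20. Oaz2, an antizyme, was 2.28-fold higher. The most abundant genes were Eif5a, the translation factor that carries hypusine made from spermidine, at 86.8 and 134 FPKM, and the antizyme gene Oaz1 at 37.0 and 54.8 FPKM, both below the median ratio.

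Among genes of proline, ornithine and collagen hydroxylation outside the set, 2 of 6 were higher and 0 lower, beside 14.8% and 2.17% of all genes. Pepd, which releases proline from dipeptides, was at 7.48 and 17.6 FPKM, and Plod1, a collagen lysyl hydroxylase, at 2.54 and 6.34 FPKM. P4hb, the partner subunit of P4ha1 and P4ha2, was the most abundant at 63.1 and 114 FPKM, and stood at 0.07 on the centred scale.

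Of 13 genes of glutamate and glutamine 1 was higher and 0 were lower, beside 14.8% and 2.17% of all genes. Glul, glutamine synthetase, was at 4.93 and 36.4 FPKM, so that Got1 had 1.26 times its FPKM in the ECM1-sufficient and 0.455 times in the ECM1-deficient library. Glud1, glutamate dehydrogenase, was at 14.1 and 26.8 FPKM, within 2-fold. Of 4 further genes of aldehyde and amine oxidation 3 were higher, Aldh3b1 at 10.7 and 27.0 FPKM, Aldh1a2 at 2.05 and 5.82 FPKM and Aldh16a1 at 0.901 and 2.94 FPKM, and 0 were lower. With the members Aldh3a2, Aldh7a1, Aldh9a1 and Aldh18a1, 7 of the 11 genes of the aldehyde dehydrogenase family at 1 FPKM or more in the set and this list passed the rule, beside 14.8% of all genes. None of the 11 passed it on the centred scale, and Aldh16a1 and Aldh18a1 reached 1 FPKM only in the ECM1-deficient library, where they were high.

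Of 13 factors known to control Arg1 or amino acid genes 3 were higher and 0 lower, beside 14.8% and 2.17% of all genes. On the centred scale the median of these factors was -0.099, and that of all genes 0.034. Pparg, a lipid-sensing nuclear receptor, was at 3.99 and 9.91 FPKM, Irf8 at 3.55 and 11.3 FPKM and Spi1, the myeloid factor PU.1, at 6.73 and 28.8 FPKM. Spi1 was also higher on the centred scale, at 1.22. Stat6, which carries the interleukin-4 signal to Arg1, was at 19.4 and 23.6 FPKM and Cebpb, which acts at the Arg1 enhancer, at 45.3 and 72.9 FPKM, neither past the 2-fold rule. On the centred scale they stood at -0.48 and -0.10. The most abundant factors were Atf3, at 53.1 and 104 FPKM, and Atf4.

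The authors' deposited tables were read against these values. In the authors' deposited table of the set, 22 members formed the core and Srm, with a ratio of 1.98, was the first of them. The ranking put Azin2, which was nearly level, at place 1260 and Smox, which had the median ratio, at place 5135, so its zero lay at equal FPKM and not at the median gene. All 21 core members with FPKM lay above the median ratio, as the ranking requires, and so did 4 of the 11 members outside the core. Core members came from the proline, aldehyde, polyamine, creatine and arginase branches and included the peptidase gene Lap3, while Ckb, Ckm, Oat, Cndp2 and Nos2 were among those outside it.

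**Figure D4:**
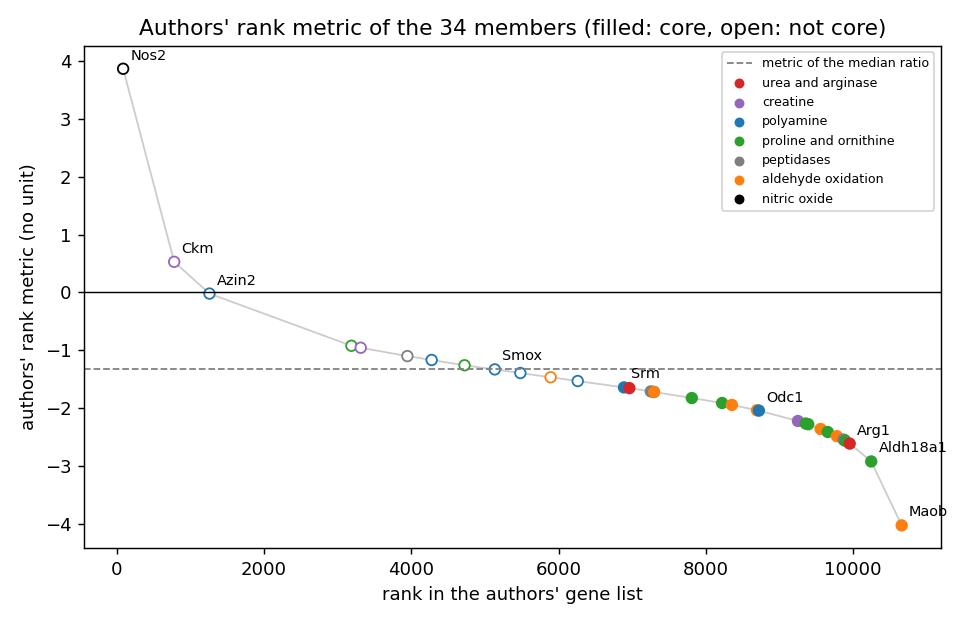
Rank metric of the 34 members in the authors' deposited table against their rank, coloured by branch, filled for core members. The dashed line is the metric of the median ratio, -1.33, with Smox on it, and Nos2 and Ckm are the members above 0.

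The authors' deposited gene ontology table named 4183 genes that had FPKM here, and their smallest difference was 0.585, which is 1.5-fold in FPKM + 1. Its list held 4944 genes, and by that measure 4943 genes of the expression table, 47.5% of all, were past 1.5-fold toward the ECM1-deficient side. The 23 members it named were the 23 members at 1.5-fold or more. Of 13 terms whose name held a word of these branches, 0 held arginine, ornithine, urea or creatine. The enrichments in the authors' deposited table are set against a population of 23313 genes, of which the list was 21.2%, and not against the genes with FPKM. The authors' deposited table gave polyamine metabolic process 9 of 17 genes, a fold enrichment of 2.50 and a false discovery rate of 0.0105, with Amd1, Odc1, Sat1, Smox, Sms and Srm among them. For 4-hydroxyproline metabolic process the authors' deposited table gave 8 of 10 genes and a false discovery rate of 0.000479, with P4ha1 and P4ha2, and for the glutamine family amino acid process 21 of 61 genes and a rate of 0.0238, with Arg1 and 4 other members. For nitric oxide biosynthetic process the authors' deposited table gave 20 of 62 genes and a rate of 0.0530, with 0 members. Counted from the authors' deposited table, these were 52.9%, 80.0%, 34.4% and 32.3% of the genes of the 4 terms, beside 21.2% of its population. That population includes genes without FPKM, so these shares cannot be set against the 47.5% of genes with FPKM. Related terms differed in their rates. The authors' deposited table gave nitric oxide metabolic process 22 of 66 genes and a false discovery rate of 0.0292, with 0 members. It gave polyamine biosynthetic process 6 of 13 genes and a rate of 0.0820, with 4 members.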

How the data were processed

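The authors deposited FPKM per gene for both libraries, and per the submitters' processing notes HISAT2, StringTie 1.2.3 and mm9 were used. Per the file headers the same deposited table also holds log2 values, a fold ratio and p-values and q-values, which were all 1. Its positions of the members overlapped the GRCm38 genes of GENCODE M21 and are given as GRCm38. They were not identical to the GENCODE positions for Amd1, Arg1, Ckb, Cndp2, Odc1 and Pycrl. The deposited gene set table holds a rank metric score, and the deposited ontology table holds counts of genes, a fold enrichment ratio, p-values and false discovery rates, per the file headers. Per the labels' protocol the libraries were poly(A)-selected and stranded. Low FPKM showed no steps of whole reads, so depth is unknown and no interval is given. Genes below 0.500 FPKM in both libraries and 1 line of the table were not analysed here.

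Differences are log2(FPKM + 1), ECM1-deficient minus ECM1-sufficient, for the 9032 genes reaching 1 FPKM in either library. That scale understates low genes, and ratios of single genes are of FPKM without the added 1. Values on the centred scale divide the FPKM by the square root of the median ratio in one library and multiply in the other. Members, branches and lists were chosen with earlier results of these data known. The members are named, with Ecm1, the list genes past 2-fold on either scale and the 2 most abundant of each list, besides examples chosen after their values were seen. Of the members, 23 matched a RefSeq promoter by symbol. The values of some single genes, 1 member among them, are not reported here, though they stay in the counts. Proteins were not used here. Alternatives were other pseudocounts, FPKM minimums, scalings and thresholds. Python 3.11.15, pandas 2.3.3 and numpy 2.4.6 were used, and the calculation was tested on simulated data.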

Additional observations from a re-analysis of the deposited data

How the results depend on the processing

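No paired analysis was possible because each genotype has 1 library and nothing ties their numbers. No member past the threshold changed sign under the alternatives run, but the number past it followed the scale, and after division by the median ratio Oat, Ckb, Cndp2, Amd1 and Pycrl joined Ckm below 0. In each sentence below counts are higher and lower genes where both are given, and medians are log2 differences of members, all genes and the pathway genes outside the set. With a pseudocount of 0.1, 16 members, 2944 genes overall and, outside the set, 23 higher and 2 lower genes passed, with medians of 1.01, 0.80 and 0.87. With a pseudocount of 5, 2 members (Arg1 and P4ha1), 286 higher and 89 lower genes overall and 5 higher and 0 lower outside the set passed, with medians of 0.52, 0.32 and 0.46. Division by the median ratio left 0 members, 221 higher and 431 lower genes overall and 3 higher and 3 lower outside the set, with medians of 0.21, 0.034 and 0.088. Equal sums left 2 members (Arg1 and P4ha1), 381 higher and 296 lower genes overall and 6 higher and 3 lower outside the set, with medians of 0.51, 0.29 and 0.38. A 1.5-fold threshold gave 23 members, 4849 higher and 332 lower genes overall and 45 higher and 3 lower outside the set, and a 4-fold one 0 members, 109 higher and 72 lower genes overall and 1 higher and 0 lower outside the set. Without an FPKM minimum medians were 0.83, 0.56 and 0.71, and with a minimum of 5 they were 0.87, 0.74 and 0.81, with 122 genes lower. With 1 FPKM required in both libraries, an alternative chosen after seeing the data, 10 of 25 members were higher, 98 genes were lower overall and medians were 0.89, 0.63 and 0.77. The share of members called higher was above that of all genes except after division by the median ratio and at 4-fold, where 0 members were called. The unknown depth limits every low value, above all those of Maob, L3hypdh, Sat2 and Azin2.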
